A study of Mus musculus with 2 samples.

Results

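Genomic imprinting silences a gene on the chromosome inherited from one parent, so that only the copy from the other parent is transcribed. The silencing is set by DNA methylation laid down in the germ line and kept at control regions that each govern a cluster of neighbouring genes, often through a noncoding RNA made from the opposite parental chromosome. In mice, paternally expressed genes such as Igf2 tend to promote growth and maternally expressed genes such as Grb10 and Cdkn1c tend to restrain it. Several of them, among them Dlk1 (also called Pref-1), are known in adipose precursor cells.

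The genes described here are 45 imprinted genes outside the Trappc9 locus, taken by gene symbol from the 54532 genes of a table of transcript levels. The rule is a list of symbols and uses no measured value, although the list was proposed with earlier results of these data known. All 45 symbols were found, each on 1 line; 37 are protein-coding and 8 are noncoding RNAs. By background knowledge of the mouse, 24 are expressed from the paternal and 21 from the maternal chromosome. The reads were not split by allele, so expression from either parent was not measured.

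The table comes from an RNA sequencing study that compared wild-type mice (WT) with Trappc9 knockouts (KO), 2 genotypes with 1 library each, which leaves every difference below without a replicate check. Trappc9 encodes a subunit of the TRAPP vesicle tethering complexes. It lies in an imprinted region of its own. The series' design text names abdominal fat pads from 3 WT and 3 KO mice aged 3 to 4 weeks; it describes the cell pellet of a collagenase digest, whereas the sample labels speak of adipose-derived stem cells and of flash-frozen pads, and whether mice were pooled, their strain and sex, and the allele of the knockout are not given in the sources used here.

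Several measurements bear on what the libraries held. The WT library held 13705193 recovered fragments and the KO library 14783728; values below are given in that order. Trappc9, the targeted gene, stood at 9.94 and 12.6 FPKM (fragments per kilobase of gene length, scaled by library size), so the deposited value for the whole gene does not show the knockout, and the libraries are called by their labels throughout. Of 8 fat cell markers, 6 were measured, with a summed level of 47.5 and 41.0 FPKM over the list; 3 were lower beyond counting error and 1 higher. Adipoq, the adiponectin gene, was at 2.30 and 0.51 FPKM and Lep, the leptin gene, at 0.063 and 0.083 FPKM, while Fabp4, which other cells also express, was at 25.1 and 27.04 FPKM. All 9 adipose progenitor markers were measured, with a summed level of 1340 and 990 FPKM, most of it from the collagen genes Col1a1 and Col3a1; 6 of the 9 were lower in the library labelled KO and 2, Dpp4 and Ly6a, higher. All 9 markers of the epididymal epithelium were measured as well, with a summed level of 16786 and 23954 FPKM, and all 9 were higher. Of 10 germ cell markers, 8 were measured and the list summed to 42.0 and 175 FPKM; 6 measured genes of maturing sperm, such as Prm2, were higher, whereas Ddx4, a gene of earlier germ cells, was lower (3.77 and 1.65 FPKM). None of 6 neuronal and neuroendocrine markers reached a mean of 1 FPKM, and Snap25 was at 0 in both libraries. Transcripts typical of the male genital tract were thus present in both libraries labelled adipose, at unequal levels. In such bulk samples, fewer cells of a type and less RNA per cell cannot be told apart. The part of these shifts in any difference below was not tested.

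A gene was counted as measured when its mean was at least 1 FPKM, which 33 of the 45 imprinted genes reached. Differences are log2((KO + 1)/(WT + 1)), with 1 FPKM added to each value, which understates the change of low genes. The fragments behind each ratio of FPKM give it an exact 95% interval (Clopper-Pearson), and a difference is said to be beyond counting error when this leaves out a ratio of 1. Variation between animals or preparations is not part of these intervals. Among all 15447 measured genes, 22.9% were higher and 16.1% lower by this criterion, and 1.79% were at least 2-fold higher and 1.01% at least 2-fold lower on the log2 scale. The median log2 difference over those genes was 0.02.

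Of the 33 measured imprinted genes, 14 (42.4%) were lower in the library labelled KO beyond counting error and 7 (21.2%) were higher. Their median log2 difference was 0.01, close to that of all genes. With 1 FPKM added, only H19 passed 2-fold downwards and 0 genes passed it upwards (without it, Dlk1 passed as well, with a ratio of 0.494). The split depended on scaling: it was 18 lower and 2 higher after rescaling to TPM (each library with the same sum), which shifted the median over all genes by −0.19, and 14 and 4 after rescaling by total fragments or to TPM without the 100 most abundant genes. Relative to the median of all genes, 18 of the 33 lay below it as deposited and 17 under each rescaling.

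**Figure D1:**
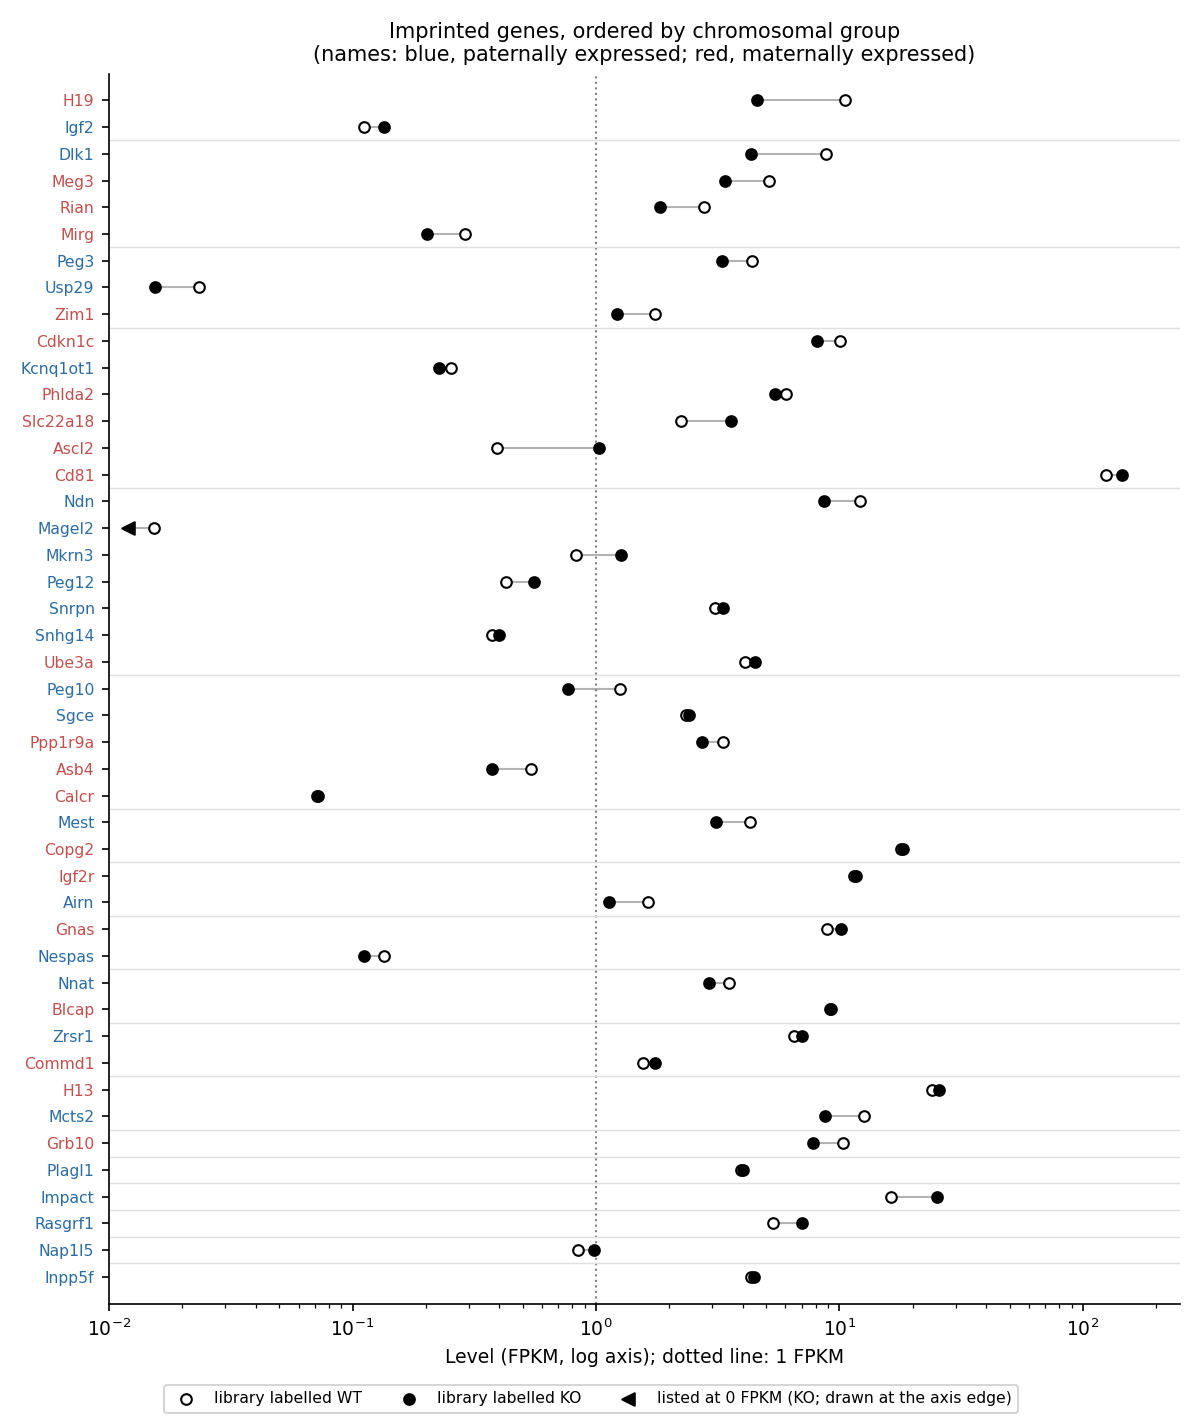
Level of each of the 45 imprinted genes in FPKM on a log axis, in the library labelled WT (open circles) and the library labelled KO (filled circles), ordered by chromosomal group. Cd81 is the most abundant, at 125 and 144 FPKM, and in the Dlk1 group all 4 filled circles lie to the left of the open ones.

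The genes lower in the library labelled KO included most of the growth-related network (H19, Igf2, Dlk1, Meg3, Grb10, Plagl1 and Peg3). Of its 6 measured members, 5 were lower beyond counting error, as they were under every scaling tried, with a median log2 difference of −0.43. The 27 measured genes outside the network had a median of 0.03, with 9 lower and 7 higher. The network was named because of its known joint role in growth, but it was proposed with results of these data in view, so this contrast is a description.

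H19 is a noncoding RNA of the maternal chromosome that lies downstream of Igf2 and carries the hairpin of a microRNA (chromosome 7, 142575529 to 142578143, mm10, minus strand). With 367 fragments it reached 10.5 FPKM in the WT library, and with 162 fragments 4.60 FPKM in the KO library. The ratio was 0.437 (counting interval 0.361 to 0.527) and the log2 difference −1.04, the lowest of the measured imprinted genes. Igf2, the paternally expressed growth factor that shares enhancers with H19, had 9 and 11 fragments (0.11 and 0.13 FPKM). Its ratio of 1.21 had a counting interval from 0.456 to 3.30, so a difference in Igf2 was not detectable at this depth.

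The 2 mature microRNAs from the H19 hairpin and the 2 from an intron of Mest are printed here as examples whose host transcripts were lower. They are RefSeq sequences on GRCm38.p6, with the seed (bases 2 to 8) in capitals, and the 4 seeds differ from one another.
mmu-miR-675-5p (in H19): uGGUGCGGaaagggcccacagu
mmu-miR-675-3p (in H19): cUGUAUGCccuaaccgcucagu
mmu-miR-335-5p (in Mest): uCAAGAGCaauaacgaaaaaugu
mmu-miR-335-3p (in Mest): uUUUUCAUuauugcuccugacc
Mature microRNAs were not measured, and both hairpins were listed at 0 FPKM in each library, so only the hosts can be described. The Dlk1 region, where the hosts Meg3 and Rian were lower as well, held more: 26 mature microRNAs of the RefSeq table lie in Mirg, 6 in Rian and 3 in Meg3. Among all of those hosted by an imprinted gene here, only mmu-miR-453 and mmu-miR-496a-5p, both in Mirg, had a seed in common.

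Dlk1 and its neighbours were lower as a group. Dlk1 (chromosome 12, 109452823 to 109463336, plus strand) is paternally expressed and encodes a membrane protein that holds back the differentiation of preadipocytes. It was at 8.80 FPKM from 705 fragments and 4.35 FPKM from 352 fragments, a ratio of 0.494 (0.434 to 0.563). Its log2 difference of −0.87 was the second lowest. The other 3 genes are noncoding RNAs of the maternal chromosome, transcribed in the same direction. Meg3 (109541001 to 109571726) was at 5.15 and 3.37 FPKM, a ratio of 0.655 (0.601 to 0.714). Rian, the host of many small nucleolar RNAs, was at 2.78 and 1.84 FPKM, with a ratio of 0.662 (0.589 to 0.744). The ratios of Meg3 and Rian were nearly the same and lay above the interval of Dlk1. Mirg, at 0.29 and 0.20 FPKM from 30 and 21 fragments, had a ratio of 0.693 whose interval (0.377 to 1.25) included no change. Genes of both parental chromosomes in this cluster thus differed in the same direction.

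Grb10 and Peg3 differed by less. Grb10 encodes an adaptor that binds the insulin and IGF1 receptors and restrains growth (chromosome 11, 11930508 to 12038683, minus strand). It was at 10.4 and 7.76 FPKM (1335 and 1009 fragments), a ratio of 0.748 (0.689 to 0.813). It is maternally expressed in most tissues and paternally in neurons, from separate promoters, which the gene-level value adds together. Peg3, a paternally expressed zinc finger gene (chromosome 7, 6703892 to 6730431, minus strand), was at 4.39 and 3.30 FPKM (828 and 629 fragments), a ratio of 0.752 (0.677 to 0.835). The intervals of Grb10 and Peg3 overlap almost entirely. Zim1, the maternally expressed neighbour of Peg3, was at 1.75 and 1.22 FPKM with a ratio of 0.698 (0.559 to 0.870). Usp29, which starts beside Peg3 on the other strand, had 6 and 4 fragments, too few for a comparison.

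Plagl1 was the measured network member that did not differ beyond counting error. It encodes a zinc finger transcription factor that is known to act on other imprinted genes, H19 and Igf2 among them (chromosome 10, 13060504 to 13131694). Its level was 3.94 and 4.01 FPKM from 436 and 449 fragments. The ratio was 1.02, with an interval of 0.892 to 1.17 that excludes a difference as large as that of Grb10 or Peg3. On every scale its log2 difference lay next to the median of all genes.

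**Figure D2:**
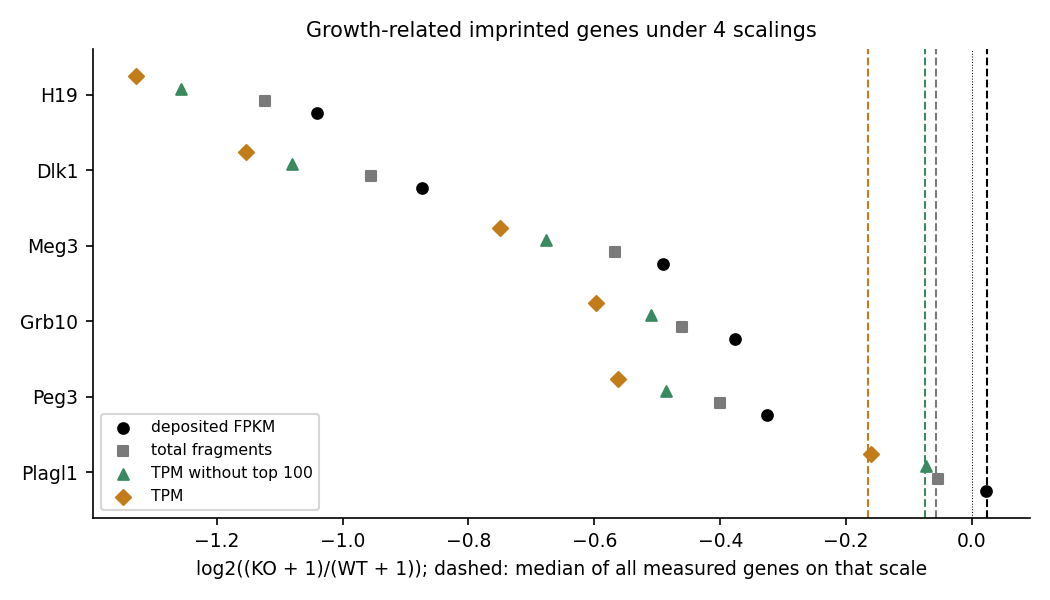
Log2 differences of the 6 measured growth-related genes on 4 scales (symbols), with the median of all measured genes on each scale as a dashed line. H19, Dlk1, Meg3, Grb10 and Peg3 lie to the left of their dashed line on every scale, and Plagl1 lies close to it.

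Upstream stretches of 4 genes that were lower together are shown from RefSeq (GRCm38.p6, the assembly also called mm10), from 150 to 21 bases before the annotated start, 5′ to 3′ on the gene's strand. Capitals mark the hexamer TGCCGC on either strand (GCGGCA when it lies on the other one), the letters that the imprint-keeping protein ZFP57 binds when their CpG is methylated.
Dlk1, chr12:109452673-109452802, plus strand: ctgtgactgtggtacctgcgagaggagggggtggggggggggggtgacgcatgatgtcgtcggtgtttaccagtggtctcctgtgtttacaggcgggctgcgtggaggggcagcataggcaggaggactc
Meg3, chr12:109540846-109540975, plus strand: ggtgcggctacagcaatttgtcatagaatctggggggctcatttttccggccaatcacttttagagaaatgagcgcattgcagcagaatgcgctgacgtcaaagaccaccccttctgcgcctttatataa
Peg3, chr7:6730440-6730569, minus strand: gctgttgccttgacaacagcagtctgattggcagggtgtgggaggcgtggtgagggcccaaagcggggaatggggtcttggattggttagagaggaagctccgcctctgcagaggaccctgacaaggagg
Mest, chr6:30737900-30738029, plus strand: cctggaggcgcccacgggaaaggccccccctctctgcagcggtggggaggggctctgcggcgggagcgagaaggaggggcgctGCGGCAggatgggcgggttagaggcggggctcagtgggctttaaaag
Of these 4 stretches only that of Mest, at its downstream promoter, holds the hexamer. The 300-base window of this Mest promoter holds 2, of which 1 is shown. That of the same Meg3 promoter holds 1, outside the bases shown. The Peg3 stretch is also the upstream side of Usp29, which is read in the opposite direction.

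Promoters of the imprinted genes were rich in CpG. The RefSeq table held 56 promoter windows of 300 bases for 39 of the 45 genes, some of them overlapping. The median number of CpG was 15 per window, against 7 over all 32851 windows of that length. At least 1 hexamer was present in 25% of the windows (14 of 56), against 11.6% of all windows. By parent, 8 of 28 windows of paternally expressed and 6 of 28 of maternally expressed genes held it. The hexamer itself contains a CpG, and methylation was not measured here.

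Genes of the Kcnq1 region on chromosome 7 differed in both directions. Cdkn1c, a maternally expressed inhibitor of cyclin-dependent kinases, was at 10.0 and 8.13 FPKM with a ratio of 0.809 (0.679 to 0.964). Phlda2, which limits placental growth, was at 6.05 and 5.43 FPKM, with an interval that included no change (0.664 to 1.21). Higher in the library labelled KO were the transporter gene Slc22a18, at 2.24 and 3.58 FPKM from only 54 and 87 fragments, and the tetraspanin gene Cd81, at 125 and 144 FPKM (ratio 1.15, 1.11 to 1.20). After rescaling to TPM neither remained beyond counting error. The log2 difference of Slc22a18 was then 0.42, against 0.50 as deposited, and that of Cd81 0.0039, against 0.20. Both remained higher by total fragments (0.43 and 0.11) and on TPM without the 100 most abundant genes (0.53 and 0.10). Ascl2, a transcription factor of the placenta, had 9 and 24 fragments (0.39 and 1.03 FPKM); its ratio of 2.64 had a wide interval (1.19 to 6.46), and its mean was below 1 FPKM. Kcnq1ot1, the paternal noncoding RNA that silences the cluster, was at 0.25 and 0.23 FPKM, from 334 and 302 fragments over 93092 bases. Its ratio of 0.895 had an interval that included no change (0.764 to 1.05), but it was lower beyond counting error under each rescaling. Kcnq1, which it overlaps in full on the other strand, was at 9.87 and 9.96 FPKM.

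In the Snrpn to Ube3a region, known from Prader-Willi and Angelman syndromes, only Ndn was lower. Ndn encodes necdin, a growth suppressor of the MAGE family that is also known in preadipocytes. It was at 12.2 and 8.63 FPKM from 638 and 456 fragments, a ratio of 0.708 (0.626 to 0.799). Its intronless neighbours rested on few fragments: Mkrn3 had 30 and 46 and Peg12 16 and 21, with intervals that included no change, and Magel2 had 1 and 0, where a count of 0 allows up to 0.045 FPKM. Snrpn, at 3.07 and 3.34 FPKM, did not differ beyond counting error, and Snurf, which shares its transcripts, was listed at 0 in both libraries, so the counting of this pair is uncertain. Ube3a, the ubiquitin ligase gene that is imprinted in neurons, was at 4.10 and 4.52 FPKM, a ratio of 1.10 (1.02 to 1.19), whereas its log2 difference was −0.06 after rescaling to TPM. Snhg14, the noncoding RNA antisense to Ube3a, was at 0.37 and 0.40 FPKM.

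On chromosome 6, the retrotransposon-derived gene Peg10 was at 1.25 and 0.77 FPKM (118 and 73 fragments), a ratio of 0.613 (0.451 to 0.827). Sgce, an epsilon-sarcoglycan gene transcribed away from Peg10 and likewise paternally expressed, was at 2.34 and 2.40 FPKM with a ratio of 1.03 (0.885 to 1.19). The 2 intervals do not overlap, although the genes start next to each other. The phosphatase regulator gene Ppp1r9a was at 3.33 and 2.72 FPKM (ratio 0.818, 0.731 to 0.916). Asb4 had 30 and 21 fragments, and Calcr, the calcitonin receptor gene, 4 in each library.

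The remaining genes that were higher in the library labelled KO were Impact, Rasgrf1, Gnas and H13. Impact, a regulator of the translational stress kinase Gcn2 that is paternally expressed (chromosome 18), was at 16.3 and 25.1 FPKM, from 793 and 1230 fragments. The ratio was 1.54 (1.40 to 1.68). Its log2 difference of 0.59 was the highest among the measured imprinted genes, and it alone of them lay above the middle 90% of all genes (−0.49 to 0.55). Rasgrf1, a Ras activator, was at 5.32 and 7.04 FPKM, a ratio of 1.32 (1.21 to 1.45). Both stayed higher on every scale. Gnas, which encodes a G protein subunit and makes transcripts of either parental chromosome from several promoters, was at 8.88 and 10.2 FPKM (ratio 1.15, 1.07 to 1.23), and its log2 difference fell to −0.0040 on the TPM scale.

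**Figure D3:**
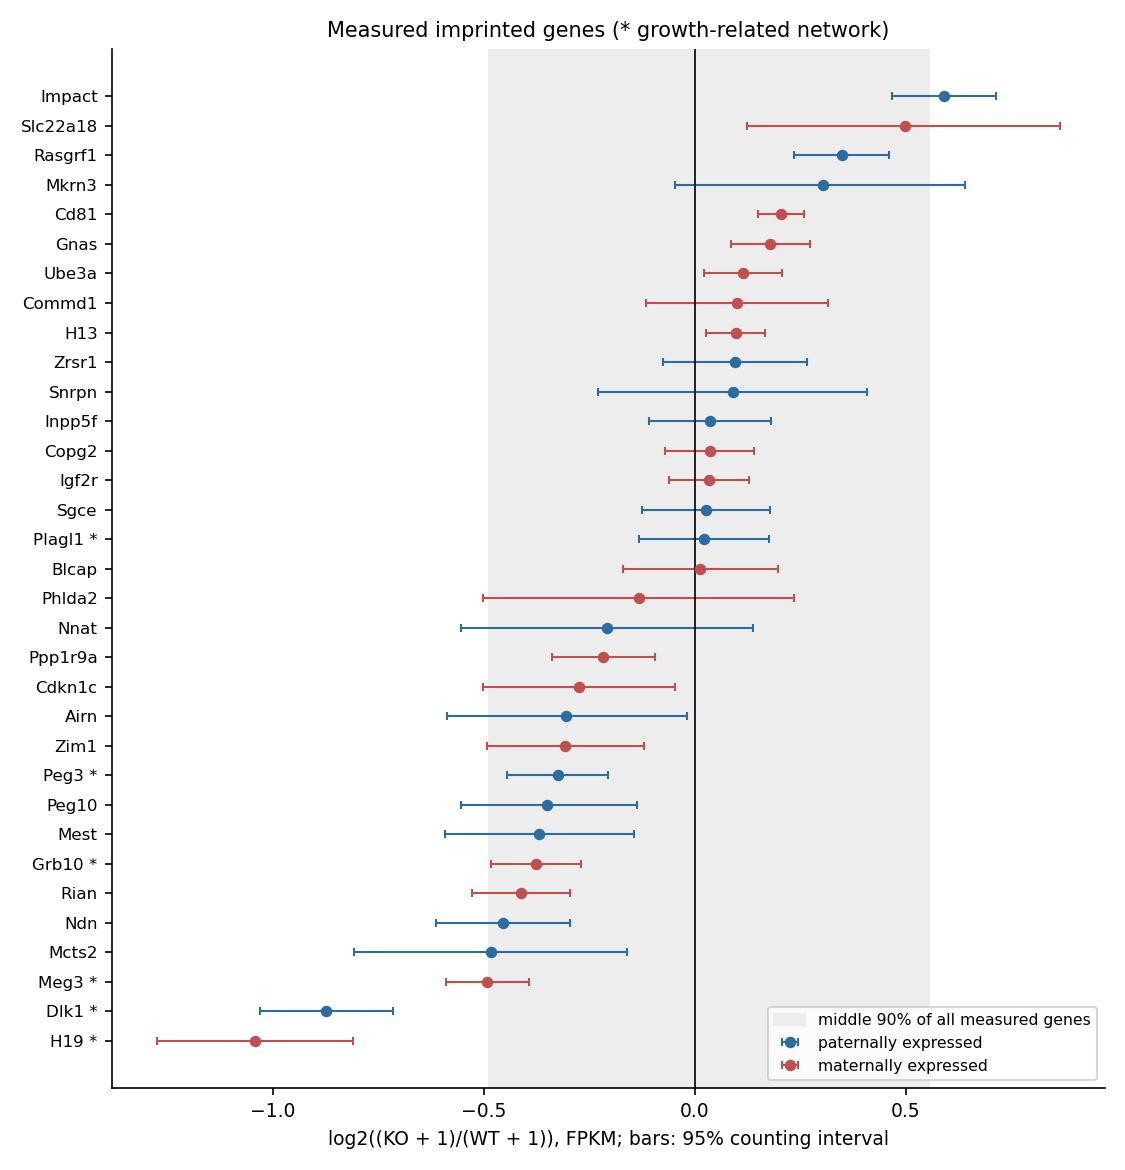
Log2 difference between the libraries for the 33 measured imprinted genes, with 95% counting intervals; asterisks mark the growth-related network and the grey band is the middle 90% of all measured genes. H19, Dlk1 and Meg3 lie to the left of the band and Impact to the right of it.

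Paternally and maternally expressed genes, as classed by background knowledge, did not separate. Some of them are imprinted only in certain tissues or from certain promoters, such as Ube3a in neurons, Cd81 in placenta and Gnas. Of the 16 measured paternally expressed genes, 7 (43.8%) were lower and 2 (12.5%) higher beyond counting error. Their median log2 difference was −0.09. Of the 17 maternally expressed genes, 7 (41.2%) were lower and 5 (29.4%) higher, with a median of 0.01. Over all measured genes, 16.1% were lower and 22.9% higher, so the shares of higher genes in the 2 classes lay on either side of that of all genes. The middle 50% ran from −0.35 to 0.09 for the paternal and from −0.31 to 0.10 for the maternal genes, so the spread within each class was several times the gap between their medians. The lowest gene was maternal (H19) and the next paternal (Dlk1). Without the filter on FPKM the medians were 0.0056 and −0.00095, in the opposite order.

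**Figure D4:**
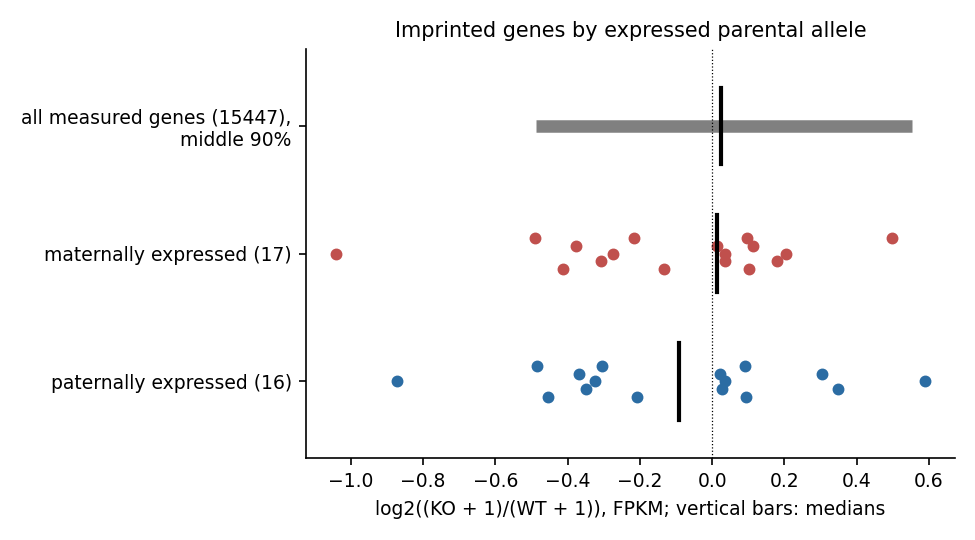
Log2 differences of the 16 paternally and 17 maternally expressed measured genes (points), with the middle 90% of all 15447 measured genes (grey bar) and medians as vertical bars. Both classes spread across most of the grey bar, with medians of −0.09 and 0.01.

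Many imprinted genes lie inside or across another gene, which limits what an unsplit count can show. The labels do not say that the libraries kept strand. In the table, 32 of the 45 overlapped at least 1 other gene and 15 overlapped a gene of at least 1 FPKM. There were 9 paternally expressed genes with such a partner, 5 of them measured. All 5 had a lower log2 difference than the partner, 2 of them with intervals that did not overlap. Among the pairs not measured, Nap1l5 lay above its partner Herc3 (0.11 and −0.01). The same count over other overlapping genes was not made. Mcts2, a translation factor gene inserted in an intron of H13 on the same strand, was at 12.6 and 8.74 FPKM (ratio 0.693, 0.540 to 0.885), whereas H13, a maternally expressed signal peptide peptidase gene, was at 23.9 and 25.7 FPKM (ratio 1.07, 1.02 to 1.13). Mest, which encodes a hydrolase-like protein linked to fat cell size, was at 4.29 and 3.10 FPKM (ratio 0.722, 0.591 to 0.881). Copg2, a coat protein gene of transport vesicles that meets the end of Mest over 912 bases, was at 17.9 and 18.3 FPKM. For these 2 pairs the intervals of the log2 differences did not overlap. H13 itself was at −0.10 on the TPM scale.

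In the other 3 measured pairs the intervals overlapped. Airn, the noncoding RNA that silences Igf2r on the paternal chromosome, was at 1.63 and 1.13 FPKM (83 and 58 fragments, ratio 0.692, 0.486 to 0.979). Igf2r, the receptor that carries IGF2 to lysosomes for breakdown, was at 11.4 and 11.7 FPKM with a ratio of 1.03 (0.956 to 1.10). Nnat, a small membrane proteolipid gene inside Blcap, was at 3.51 and 2.90 FPKM, and Blcap at 9.12 and 9.21 FPKM; neither differed beyond counting error. The splicing factor gene Zrsr1 (6.54 and 7.05 FPKM) and its host Commd1 (1.56 and 1.74 FPKM) had nearly equal log2 differences of 0.09 and 0.10. Below 1 FPKM were Nespas, opposite Gnas, with 6 and 5 fragments, and Nap1l5, inside Herc3, with 22 and 26. Inpp5f, a phosphatase gene of which only some transcripts are imprinted, was at 4.33 and 4.47 FPKM.

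**Figure D5:**
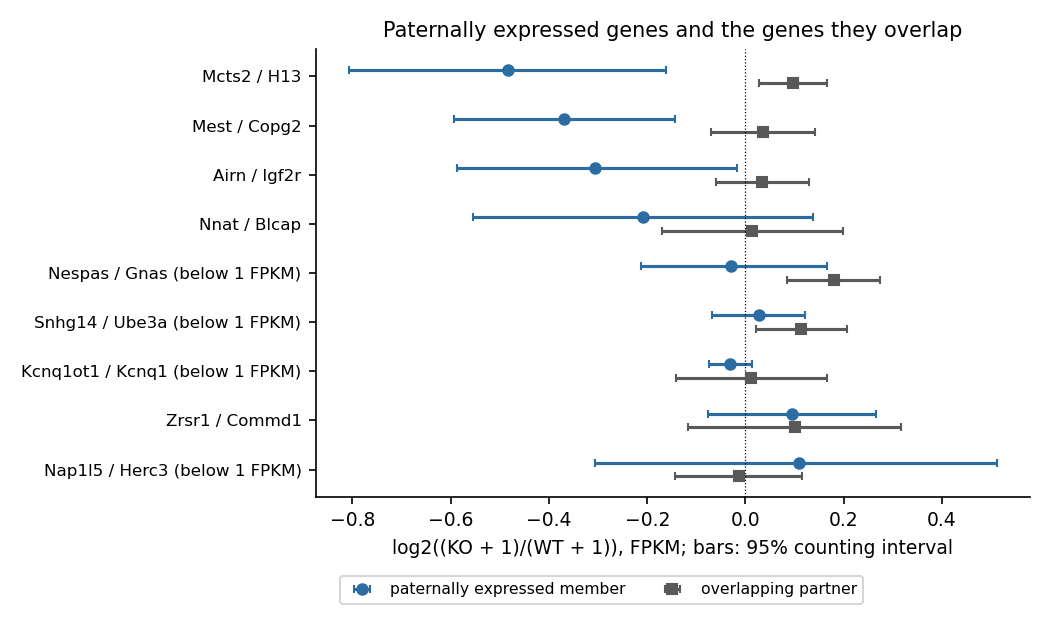
Log2 differences with 95% counting intervals for 9 paternally expressed genes (blue circles) and the gene each overlaps (grey squares). For Mcts2 with H13 and Mest with Copg2 the bars do not overlap, and for the other pairs they do.

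Factors that keep, read or erase imprints, the Tet genes among them, were mostly at or below their level in the library labelled WT. Of 25 listed, 24 were found and 20 were measured. Of these, 11 were lower beyond counting error and 0 higher, with a median log2 difference of −0.17. The lowest was Uhrf1, which brings the maintenance methyltransferase to replicating DNA, at 15.5 and 8.13 FPKM (ratio interval 0.468 to 0.583). Dnmt3a, a de novo methyltransferase, was at 9.21 and 6.34 FPKM, Zfp57 itself at 3.06 and 1.98 FPKM, and the Polycomb methyltransferase gene Ezh2 at 4.79 and 3.33 FPKM. Zfp445, a further imprint-keeping zinc finger gene, was at 18.4 and 19.4 FPKM and Ctcf, the insulator protein of the Igf2 to H19 region, at 16.8 and 16.7 FPKM.

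Proliferation genes moved with these. Each of 26 listed cell cycle genes had a lower level in the KO library by the same criterion, with a summed level of 241 and 153 FPKM and a median log2 difference of −0.62. Uhrf1 is itself a gene of dividing cells. Whether the growth-related imprinted genes followed the number of dividing or of progenitor cells was not tested.

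Partners of IGF2 and of Grb10 differed by smaller amounts than the cell cycle genes. Of 14 listed, 11 were measured, with 7 lower and 2 higher and a median of −0.21. Igfbp6, a binding protein that prefers IGF2, was at 177 and 133 FPKM (log2 difference −0.41), and Igf1, the growth factor, at 10.5 and 8.99 FPKM. Igf1r, the receptor for both ligands, was at 18.4 and 18.8 FPKM, with a ratio interval of 0.982 to 1.07.

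A second list held 42 further imprinted genes, many of them imprinted only in placenta or brain. Of the 23 measured, 7 were lower and 4 higher beyond counting error, with a median of −0.08. The lowest were Osbpl5 (5.59 and 3.94 FPKM) and Qpct (6.17 and 4.49 FPKM), and the highest Ddc (0.87 and 1.36 FPKM). Dio3, at the far end of the Dlk1 region, was at 1.84 and 1.79 FPKM from 53 and 52 fragments. Its ratio was 0.972, with an interval of 0.650 to 1.45 that includes the ratio of Meg3 but not that of Dlk1. At the Trappc9 locus itself, 2 of 4 measured genes were higher, Trappc9 and the noncoding Peg13 (7.46 and 8.60 FPKM), against 22.9% of all measured genes. The ratio of Peg13 was 1.15, with an interval of 1.02 to 1.30. These genes were not recomputed under the other scalings. Gnas, whose ratio was also 1.15, was not beyond counting error under any rescaling.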

How the data were processed

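A single library per genotype was built with an Illumina TruSeq kit, per the labels' protocols. Alignment tool and builds are known from the submitters' processing notes only, as HISAT2 (2.0.5) with mm10 and hg38; the counting program, its strand setting and the annotation are not given in the sources used here. The authors deposited 1 FPKM value per gene and library, with gene lengths and positions. Of the 45 genes, 44 had the same position in GENCODE M21; Impact did not.

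Fragments were recovered as FPKM times length divided by the smallest such product of the library (100% of values whole within 0.01 of a fragment). Differences, Clopper-Pearson intervals (95%, scipy 1.17.1, Python 3.11.15) and medians were computed from these, with no p-value, since each genotype has 1 library. The intervals were run on simulated fragments that held counting error only, in genes with more fragments than the lowest ones here. Such a check cannot show how they behave under variation between animals or at low counts. No further scaling was applied; TPM, total fragments, other pseudocounts and filters were alternatives. Promoters and microRNAs came from RefSeq tables. The gene set and all lists were chosen with earlier results of these data known. All 45 genes are named; from other lists, at most 4 genes with the largest differences, with a few named for contrast after their values were seen.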

Additional observations from a re-analysis of the deposited data

How the results depend on the processing

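No paired analysis was possible because each genotype has 1 library, and no replicate could be left out. Of 74 recomputed medians and counts, 56 stayed within their counting range or within 1.5 times the value reported. The network median was −0.27 with a pseudocount of 5 FPKM, −0.87 over genes of at least 5 FPKM (fewer genes), −0.67 on the TPM scale and −0.59 on TPM without the 100 most abundant genes; it was below 0 in every setting and −0.46 to −0.52 relative to the median of all genes, a choice added after seeing the data. The maternal median was −0.18 on the TPM scale and −0.22 without genes that overlap another. That last setting kept 10 measured genes, of which Grb10, Zim1, Phlda2 and Slc22a18 were maternal. It also left out H19 and Meg3, which overlap only genes listed at 0 FPKM in both libraries. Genes at least 2-fold lower numbered 0 with a pseudocount of 5 FPKM or without overlapping genes, and 2 under either TPM scale or with a threshold of 1.5-fold, where 1 was higher. Genes higher beyond counting error numbered 2 of 33 on the TPM scale, and 4 by total fragments or on TPM without the 100 most abundant genes. Without overlapping genes they numbered 3 of 10. Genes lower numbered 6 of the 16 of at least 5 FPKM and 5 of the 10 without overlapping genes. Shares over all genes were not computed for these 2 filters. Of single genes called higher, Ube3a (−0.058), Gnas (−0.0040) and H13 (−0.10) changed sign on the TPM scale, and H13 (−0.0045) on TPM without the 100 most abundant genes. On the TPM scale H13 was lower beyond counting error. So were Nnat (−0.43), Copg2 (−0.16) and Igf2r (−0.16), which did not differ beyond it as deposited. The median of all genes on that scale was −0.17. Depth limited Igf2, Usp29, Magel2, Nespas and Calcr, with 11 or fewer fragments in either library.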
